A study of Mus musculus with 6 samples.

Results

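The genes of the mitochondrial ribosomal proteins, which carry the symbols Mrpl for the large and Mrps for the small subunit, were examined in liver mRNA of mice on a high-fat diet with or without an herbal extract. They were taken by symbol (Mrpl or Mrps, a number and at most 1 further letter) and by a mean level over all libraries of at least 1 FPKM, the number of fragments scaled to transcript length and to the mapped fragments of the library. Of 78 such symbols in the GENCODE M21 annotation, 77 had a row in the deposited table and 75 passed the filter, 46 of the large and 29 of the small subunit. They are 75 of the 10476 genes tested and of the 23474 rows in all. Mrpl17 and Mrpl2 are listed at 0 in all 6 libraries and were not tested, and the identifier of Mrpl33 was not matched to a row. Genes that every cell uses can be listed at 0 in such tables when an estimate fails, so no absence was read from these zeros.

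All animals were male C57BL/6J mice, bought at 4 weeks of age and given chow for 1 week before the study diets. From 5 weeks of age, 10 mice were fed the high-fat diet alone (HFD) and 10 the same diet with Bangpungtongseong-san extract at 1.5% by weight (BT), a traditional formula of many herbs, for 12 weeks. The livers were taken at 17 weeks of age, and 3 libraries per diet, made from mRNA with a TruSeq RNA kit, were compared. Both groups thus had a high-fat diet and no lean group was compared, so each difference is one between the diet with and the diet without the extract. Whether each library came from 1 mouse or from several is not stated, and p-values here measure only the spread between these libraries. The library codes in the labels hold a letter that differs between the diets and whose meaning is not stated, and anything it stands for cannot be told apart from the diet.

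Mitochondria translate the few mRNAs of their own genome, which encode core subunits of the respiratory chain and ATP synthase, on a ribosome of bacterial descent. Its RNAs are transcribed inside the organelle, while all its proteins are encoded in the nucleus, made in the cytosol and imported. Many of these proteins have bacterial counterparts, and others were added in mitochondria and fill the place of lost ribosomal RNA. Liver is rich in mitochondria, and the respiratory chain that these ribosomes supply is where the electrons from fatty acid oxidation are passed on. The promoters of nuclear genes for mitochondrial proteins are known for sites of the factors NRF1, of the ETS family (NRF2/GABP) and YY1.

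The promoter windows of 5 members are shown because they are genes on which the results below turn and because together they hold each of the 3 motifs searched, or none. The first 3 belong to members that were lower with BT, and the last 2 to the members with the highest log2 changes. Each window runs from 250 bases before to 50 bases after the RefSeq start (GRCm38.p6), and is given 5′ to 3′ on the strand of the gene. Capitals mark the letters GCGCATGC (NRF1-type), CCGGAAG (ETS-type) and AAGATGGCG (YY1-type) on either strand, and where hits overlap the capitals run on.
Mrps24 (chr11:5707652-5707951, minus strand): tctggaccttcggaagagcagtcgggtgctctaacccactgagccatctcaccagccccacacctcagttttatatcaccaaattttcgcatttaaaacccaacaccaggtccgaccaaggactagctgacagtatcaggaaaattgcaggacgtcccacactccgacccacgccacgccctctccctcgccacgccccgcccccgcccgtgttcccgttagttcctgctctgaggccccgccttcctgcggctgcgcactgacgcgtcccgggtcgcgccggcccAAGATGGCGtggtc
Mrpl22 (chr11:58171414-58171713, plus strand): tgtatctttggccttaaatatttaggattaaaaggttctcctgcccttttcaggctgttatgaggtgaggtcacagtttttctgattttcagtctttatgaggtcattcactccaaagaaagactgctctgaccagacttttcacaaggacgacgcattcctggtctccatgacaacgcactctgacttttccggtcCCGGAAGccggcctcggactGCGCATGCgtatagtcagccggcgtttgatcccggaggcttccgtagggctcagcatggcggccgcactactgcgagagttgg
Mrps18a (chr17:46110754-46111053, plus strand): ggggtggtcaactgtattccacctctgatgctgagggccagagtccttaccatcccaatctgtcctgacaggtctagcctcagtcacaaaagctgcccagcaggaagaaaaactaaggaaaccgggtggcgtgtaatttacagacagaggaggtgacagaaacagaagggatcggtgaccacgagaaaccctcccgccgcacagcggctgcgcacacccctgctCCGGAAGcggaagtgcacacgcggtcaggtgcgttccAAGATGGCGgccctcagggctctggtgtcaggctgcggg
Mrps18b (chr17:35916391-35916690, minus strand): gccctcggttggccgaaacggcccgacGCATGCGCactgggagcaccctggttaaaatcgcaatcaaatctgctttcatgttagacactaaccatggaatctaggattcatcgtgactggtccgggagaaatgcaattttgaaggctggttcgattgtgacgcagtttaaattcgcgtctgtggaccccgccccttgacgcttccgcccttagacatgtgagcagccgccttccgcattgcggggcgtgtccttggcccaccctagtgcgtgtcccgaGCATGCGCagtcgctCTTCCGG
Mrps5 (chr2:127587176-127587475, plus strand): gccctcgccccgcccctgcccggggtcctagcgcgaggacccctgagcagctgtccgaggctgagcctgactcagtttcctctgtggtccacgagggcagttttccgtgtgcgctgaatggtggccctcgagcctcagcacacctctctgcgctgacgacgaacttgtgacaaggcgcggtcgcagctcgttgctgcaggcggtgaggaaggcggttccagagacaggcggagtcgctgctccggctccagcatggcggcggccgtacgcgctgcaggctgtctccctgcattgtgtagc
Mrps24 held 1 YY1-type match close to its start, Mrpl22 held 1 ETS-type and 1 NRF1-type match, and Mrps18a held 1 ETS-type and 1 YY1-type match. Mrps18b held 2 NRF1-type matches and 1 ETS-type match, and Mrps5 held none of these letters.

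Of the 75 members, 66 had a window in the RefSeq table. The ETS-type letters were found in 22 of the 66 (33.3%), against 19.7% of the 8231 windows of genes tested and 9.14% of all 27025 windows. The YY1-type letters were found in 8 (12.1%), against 3.49% and 1.48%, and the NRF1-type letters in 6 (9.09%), against 5.66% and 2.80%. At least 1 of the 3 was present in 32 members (48.5%), against 26.6% of the windows of genes tested. Among members lower with BT, 12 of 21 windows held a motif, and among the others 20 of 45. These are counts of letters, not of bound sites, and no test was made over them.

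The levels of most members were lower on average with BT, and a part of them passed the test. By limma's test over all genes (Benjamini-Hochberg adjusted p under 0.05), 24 of the 75 fell, against 7.33% of all genes tested, and 1 rose, against 6.01% (13.3% of all genes passed in either direction). The median log2 change (BT minus HFD, of FPKM + 1, as all log2 changes here) was -0.32 over the members and 0.07 over all genes tested. It was negative in 55 members, against 40.8% of all genes. In 40 members all 3 BT libraries lay below all 3 HFD libraries, as they did in 16.1% of all genes, in 7 they lay above, as in 23.2% of all genes, and in 28 the groups overlapped. The change also went with gene length over all genes, as given further on, and the members are short, with a median coding length of 588 bases against 1338 over all genes tested. When 1 library was left out, the lower members numbered 3, 5, 7 and 11 without BT 1, BT 2, BT 3 or HFD 2. In the same fits 124, 221, 382 and 400 of all 10476 genes were lower, against 768 with all libraries. Without HFD 1 or HFD 3 the lower members numbered 27 and 24, and the lower genes 814 and 681. No member was called higher in any of those 6 fits.

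**Figure D1:**
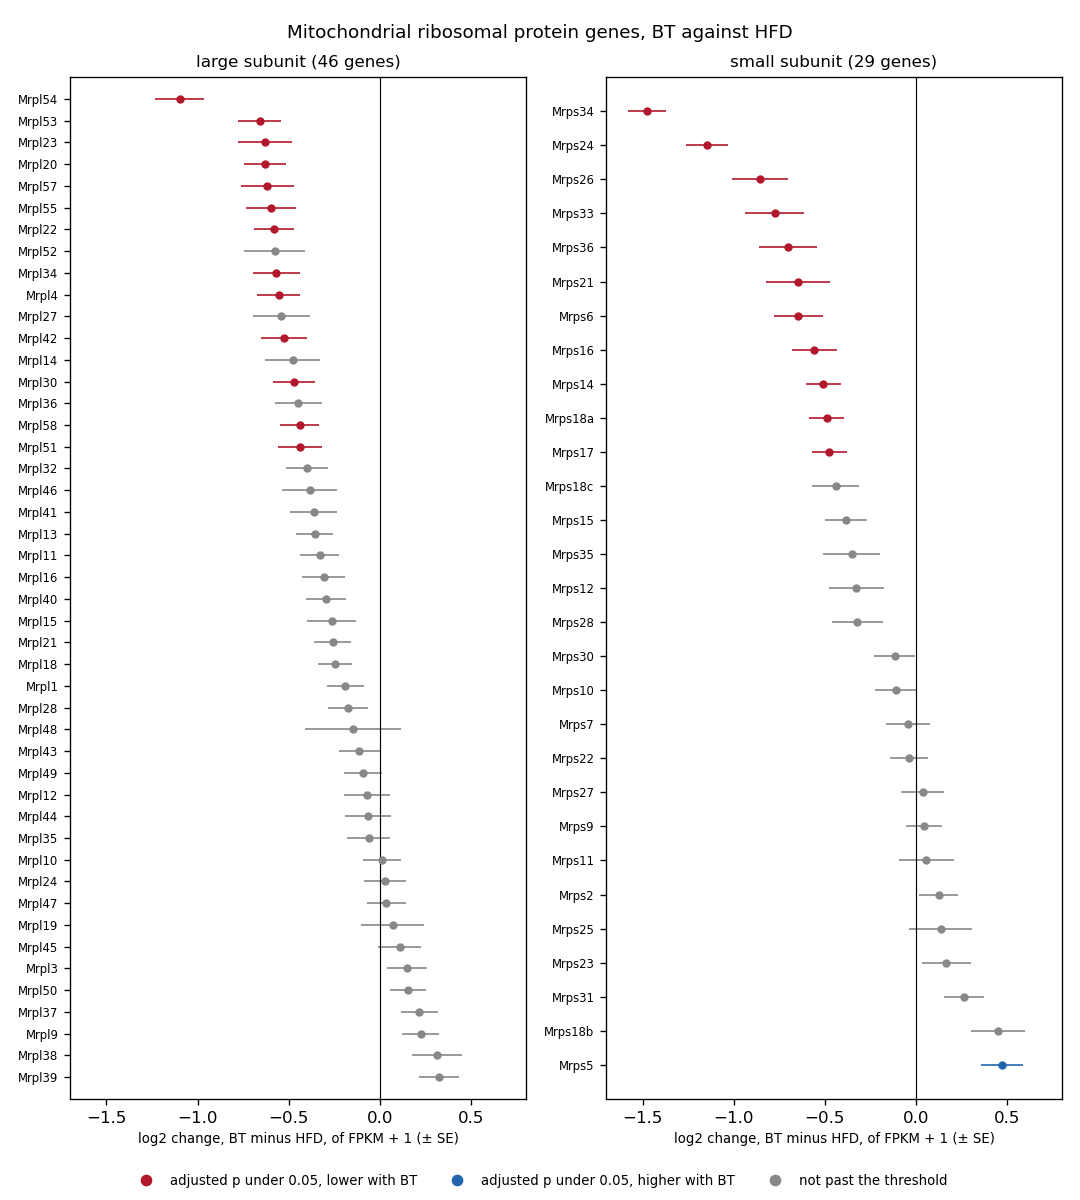
Log2 change (BT minus HFD, of FPKM + 1) of each of the 75 members with limma's SE, ordered within the 46 large-subunit and 29 small-subunit genes, and coloured by call. The 24 members called lower run from -1.48 for Mrps34 to -0.44 for Mrpl51, with uncalled members such as Mrpl52 (-0.58) among them, and Mrps5 of the small subunit is the 1 called higher, at 0.47.

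In the small subunit the strongest fall was that of Mrps34, a mitochondria-specific protein needed for the small subunit to be stable. Mrps34 (chr17:24895116-24897502, plus strand, GRCm38) measured 49.1, 56.7 and 51.1 FPKM in the HFD libraries and 17.6, 19.6 and 17.3 in the BT libraries. The groups were far apart, with the lowest HFD library above the highest BT library. The log2 change was -1.48 ± 0.10 (SE), adjusted p = 0.00114, a mean 2.88-fold higher with HFD. Of its exon bases 77.8% also lie in exons of Mapk8ip3, which runs the other way. Since no strand setting is given, reads of the 2 genes cannot be told apart. Mapk8ip3 itself measured 20.7 ± 4.0 FPKM with HFD and 24.8 ± 0.59 with BT (SD, n = 3 each), adjusted p = 0.227.

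Mrps24, the counterpart of bacterial uS3 at the entry of the mRNA channel, came next. Mrps24 (chr11:5703983-5715680, minus strand) measured 44.1, 39.2 and 35.5 FPKM with HFD and 17.4, 18.6 and 16.1 with BT. Here too the lowest HFD library lay far above the highest BT library, and the log2 change was -1.15 ± 0.11, adjusted p = 0.00261. The GENCODE model of Mrps24 starts upstream of the RefSeq window shown above, which lies inside it. Of its exon bases 15.4% also lie in exons of Urgcp on the same strand. Mrps26, a mitochondria-specific protein, was at a lower level, with 14.0, 14.96 and 10.3 FPKM against 6.91, 7.29 and 5.95, and its log2 change was -0.86 ± 0.15, adjusted p = 0.0145. Mrps33, also mitochondria-specific, measured 32.2, 52.3 and 43.6 FPKM with HFD and 24.4, 23.5 and 24.3 with BT. Its HFD libraries spread widely while the BT libraries nearly coincided, and the log2 change was -0.78 ± 0.16, adjusted p = 0.0231. Mrps34 and Mrps24 passed in each of the 6 fits without 1 library, with adjusted p up to 0.00926 and 0.0168. Mrps26 missed the threshold without BT 1 (adjusted p = 0.061), and Mrps33 missed it without any of the BT libraries and without HFD 2 (up to 0.0823).

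A further 5 small-subunit members that fell are counterparts of bacterial proteins. Mrps21 (bS21 in bacteria) had the highest level of the small subunit, with 84.8, 134 and 99.5 FPKM with HFD and 60.1, 62.5 and 77.3 with BT. HFD 2 stood far above the rest, and the log2 change was -0.65 ± 0.18, adjusted p = 0.0453. Mrps6 (bS6) went from 12.5 ± 1.5 to 7.63 ± 1.1 FPKM (SD, n = 3 each), Mrps16 (bS16) from 52.5 ± 7.4 to 35.2. Mrps14 (uS14) went from 29.2 ± 1.7 to 20.2 ± 0.56 FPKM and Mrps17 (uS17) from 45.3 ± 2.5 to 32.3 ± 1.1. Their log2 changes ran from -0.65 for Mrps6 to -0.48 for Mrps17, and in none did the groups overlap. Without any 1 of the BT libraries, Mrps21, Mrps6, Mrps16, Mrps14 and Mrps17 all missed the threshold, and without HFD 2 so did Mrps21, Mrps6 and Mrps16. Mrps21 also missed it without HFD 3. Their highest adjusted p in those fits lay between 0.0714 for Mrps14 and 0.152 for Mrps21.

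In the large subunit Mrpl54 fell most. Mrpl54 (chr10:81264713-81266934, minus strand), a mitochondria-specific protein, measured 34.9, 44.4 and 32.6 FPKM with HFD and 16.9, 17.9 and 15.5 with BT. The 2 groups were far apart, with HFD 2 the highest, and the log2 change was -1.10 ± 0.13, adjusted p = 0.00561. It passed in all 6 fits without 1 library (adjusted p up to 0.0297). Mrpl53, another mitochondria-specific protein, measured 41.8, 49.0 and 39.0 FPKM with HFD and 25.1, 28.9 and 26.8 with BT, a log2 change of -0.66 ± 0.12, adjusted p = 0.0142. Without BT 1 it missed the threshold, at 0.0699. Exons of the gene model Gm42688 share 88% of its exon bases, so reads of the 2 cannot be told apart, and Gm42688 had 1.10 ± 0.46 FPKM with HFD and 1.86 ± 0.05 with BT.

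Mrpl23 (uL23), at the exit of the tunnel through which the new chain leaves the ribosome, measured 25.7, 39.4 and 30.7 FPKM with HFD and 19.9, 19.9 and 20.03 with BT. The BT libraries were almost equal while HFD 2 was the highest, and the log2 change was -0.63 ± 0.15, adjusted p = 0.0312. Mrpl22 (uL22), whose loop reaches into the tunnel, measured 35.0, 39.7 and 34.0 FPKM with HFD and 21.8, 25.2 and 24.6 with BT, a log2 change of -0.58 ± 0.11, adjusted p = 0.0159. Mrpl4 (uL4), which reaches into the tunnel from the other side, went from 22.1, 27.6 and 26.6 FPKM to 15.7, 17.8 and 17.3, a log2 change of -0.55 ± 0.12, adjusted p = 0.0231. Mrpl24 (uL24) and Mrpl47 (uL29), also at the exit, did not pass, with log2 changes of 0.02 and 0.03 whose signs flip with median-of-ratios scaling, adjusted p = 0.898 and 0.844. Mrpl22 missed the threshold without BT 1 or BT 2 (adjusted p up to 0.0818), and Mrpl23 and Mrpl4 missed it without any of the BT libraries and without HFD 2 (up to 0.11 and 0.104), Mrpl23 also without HFD 3.

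Mrpl20 (bL20), which binds early to the RNA of the large subunit in bacteria, measured 64.1, 68.7 and 55.3 FPKM with HFD and 41.9, 41.7 and 36.7 with BT, a log2 change of -0.63 ± 0.12, adjusted p = 0.0152. Without BT 1 or BT 2 it missed the threshold, at up to 0.0638. Further counterparts of bacterial proteins that fell were Mrpl55 (bL31), Mrpl34 (bL34) and Mrpl30 (uL30), with log2 changes of -0.60, -0.57 and -0.47. Mitochondria-specific members that fell were Mrpl57, Mrpl42 and Mrpl51, with log2 changes of -0.62, -0.53 and -0.44. Mrpl58, also called Ict1, is a peptidyl-tRNA hydrolase that became part of the large subunit and can free stalled chains. It went from 28.7, 30.7 and 29.6 FPKM to 21.4, 24.0 and 19.5, a log2 change of -0.44 ± 0.11, adjusted p = 0.0339. In all 7 of these genes the BT libraries lay below the HFD libraries, and all 7 missed the threshold when any 1 BT library or HFD 2 was left out, Mrpl42, Mrpl58 and Mrpl51 also without HFD 3 and Mrpl34 also without HFD 1. Their highest adjusted p in those fits ran from 0.101 for Mrpl55 to 0.144 for Mrpl51.

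Mrpl52, a mitochondria-specific protein with the highest level of all members, had values of 135, 192 and 158 FPKM with HFD and 127, 108 and 88.8 with BT. The groups did not overlap, and its log2 change of -0.58 ± 0.17 just missed the threshold (adjusted p = 0.0535). The lowest level of the large subunit was that of Mrpl19 (bL19), at 3.84, 3.72 and 3.11 FPKM with HFD and 5.11, 3.04 and 3.39 with BT, adjusted p = 0.8. The groups of Mrpl19 overlapped, and the sign of its change of 0.07 flips with quantile normalization.

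**Figure D2:**
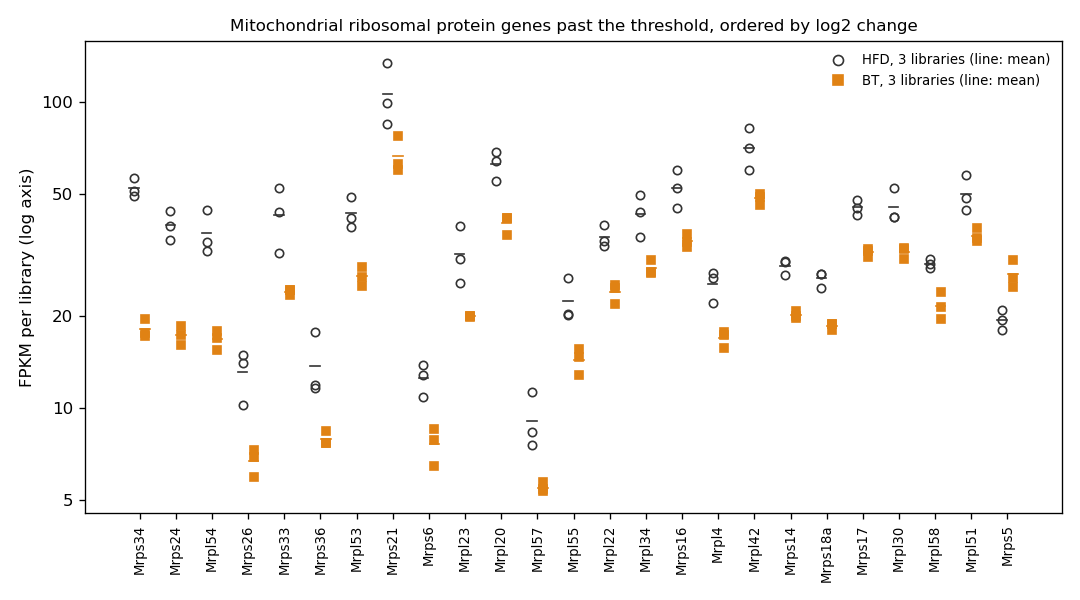
FPKM on a log axis in each library for the 25 members past the threshold, ordered by log2 change, with open circles for HFD, squares for BT and lines for the means of 3. In the 24 members lower with BT all squares lie under all circles, and in Mrps5 they lie above.

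The log2 change was positive in 20 of the 75 members, and 1 of them passed. Mrps5, the counterpart of bacterial uS5 on the path of the mRNA, measured 19.4, 20.9 and 18.0 FPKM with HFD and 30.5, 24.8 and 26.7 with BT. All BT libraries were above all HFD libraries, and the log2 change was 0.47 ± 0.11, adjusted p = 0.0345. This call was lost without any 1 of the 6 libraries (adjusted p up to 0.14) and with median-of-ratios scaling (0.0769). It was also lost without a filter on low values (0.0638) and with the trend on length and GC content removed by the longest principal transcript (0.216) or by coding length (0.0651). Mrps18b, 1 of 3 mitochondrial relatives of bacterial bS18, measured 14.0, 17.3 and 13.9 FPKM against 18.2, 19.4 and 25.5, a log2 change of 0.45 ± 0.15 that missed the threshold (adjusted p = 0.0795). In 3 fits with trends on length and GC content removed, described further on, Mrps18b passed, at adjusted p from 0.0198 to 0.047, and with TPM rescaling at 0.0445. Of its exon bases 30.5% also lie in exons of Gm16279, which runs the other way. The next in the small subunit were Mrps31, with 17.4 ± 1.7 FPKM against 21.1 ± 1.3 (SD, n = 3 each), and Mrps23, with 12.0 ± 1.2 against 13.6 ± 2.0, adjusted p = 0.139 and 0.42.

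In the large subunit the 4 highest changes were those of mitochondria-specific Mrpl39, Mrpl38 and Mrpl37 and of Mrpl9 (bL9), and none passed. With the trend on length and GC removed by the longest principal transcript, 1 mitochondria-specific large-subunit gene over 1000 coding bases passed as higher. Mrpl39, a protein related to threonyl-tRNA synthetase, measured 15.6, 13.1 and 15.1 FPKM with HFD and 19.1, 17.1 and 19.3 with BT, a log2 change of 0.32 ± 0.11, adjusted p = 0.0866. Mrpl38 measured 43.0 ± 7.3 FPKM against 53.2 ± 4.8 with overlapping groups, adjusted p = 0.156. Without the overlap, but with smaller changes, Mrpl37 had a log2 change of 0.22 ± 0.10 and Mrpl9 one of 0.22 ± 0.10, adjusted p = 0.175 and 0.166.

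Some members are named for one place and sit in another. Mrps18a and Mrps30 are found in the large subunit in structures of the mammalian mitochondrial ribosome. Mrps18a measured 27.5, 27.4 and 24.8 FPKM with HFD and 18.9, 18.0 and 18.9 with BT, a tight pair of groups with a log2 change of -0.49 ± 0.10, adjusted p = 0.0189. Mrps30 measured 12.7, 12.1 and 11.5 FPKM against 10.2, 10.6 and 12.5, overlapping groups with a log2 change of -0.12 ± 0.11, adjusted p = 0.498. Mrps36 is now known as a subunit of the 2-oxoglutarate dehydrogenase complex of the citric acid cycle rather than of the ribosome. It measured 11.9, 17.7 and 11.6 FPKM with HFD and 7.67, 7.67 and 8.43 with BT, with HFD 2 far above the others, a log2 change of -0.70 ± 0.16, adjusted p = 0.0284. Mrps18a and Mrps36 missed the threshold without any of the BT libraries, at up to 0.0821 and 0.106.

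Mrpl12, the stalk protein that contacts translation factors and has been described to bind the mitochondrial RNA polymerase, did not pass. Its values were 33.5, 27.1 and 29.2 FPKM with HFD and 24.9, 32.0 and 28.6 with BT, overlapping groups with a log2 change of -0.07 ± 0.13, adjusted p = 0.727, and its sign flips under TPM rescaling. Among the other stalk proteins Mrpl11 had a log2 change of -0.33 and Mrpl10 one of 0.01 whose sign flips with median-of-ratios scaling, adjusted p = 0.0711 and 0.945. The lowest level of the small subunit was that of Mrps27, an RNA-binding protein with pentatricopeptide repeats, at 7.99, 7.83 and 6.50 FPKM against 7.21, 7.77 and 7.89, adjusted p = 0.853, with a change of 0.04 whose sign flips with median-of-ratios scaling and quantile normalization.

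Both subunits held lower members. Of the 46 large-subunit genes 13 fell and 0 rose, and of the 29 small-subunit genes 11 fell and 1 rose, against 7.33% lower and 6.01% higher of all genes tested. The medians of the log2 change were -0.30 and -0.33, and with Mrps18a and Mrps30 counted as large and Mrps36 left out they were -0.30 and -0.33 again. The range was wider in the small subunit, from -1.48 to 0.47, than in the large, from -1.10 to 0.32. Of the 43 members with a bacterial counterpart 13 fell and 1 rose (median -0.33), and of the 29 mitochondria-specific members 9 fell and 0 rose (median -0.15). Mrps18b was counted as mitochondria-specific here, and Mrps18a, Mrps30 and Mrps36 in neither kind. With the trend on length and GC removed by the longest principal transcript, 5 large-subunit and 6 small-subunit genes were lower, and by coding length 3 and 3 (background 4.72% and 4.17%). In these 2 fits 6 and 3 members with a bacterial counterpart were lower (medians -0.12 and -0.11), and 5 and 3 mitochondria-specific members (medians -0.07 and -0.09), so the medians of the 2 kinds were closer there. No test of these contrasts was made, since genes are not replicates. Without BT 1, BT 2, BT 3 or HFD 2 the lower large-subunit genes numbered 1, 2, 4 and 4 and the lower small-subunit genes 2, 3, 3 and 7. In the same fits 1, 1, 3 and 5 members with a bacterial counterpart and 2, 4, 4 and 4 mitochondria-specific members were lower. Of all 10476 genes, 124, 221, 382 and 400 were lower there.

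Summed over members, the large subunit reached 1553, 1808 and 1503 FPKM in the HFD libraries and 1268, 1320 and 1283 in the BT libraries. The small subunit reached 774, 913 and 756 FPKM against 617, 610 and 622. The members made up 0.285% ± 0.0076 of all FPKM with HFD and 0.238% ± 0.0022 with BT (SD, n = 3 each). The ratio of the large to the small sum, which library scaling cannot move, was 2.01, 1.98 and 1.99 with HFD and 2.06, 2.16 and 2.06 with BT. It was thus slightly higher in each BT library, by an amount small beside the fall of both sums. HFD 2 had the highest value of the 6 libraries in 40 of 75 members, and the median SD of the log2 values within a group was 0.157 for HFD and 0.0903 for BT.

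**Figure D3:**
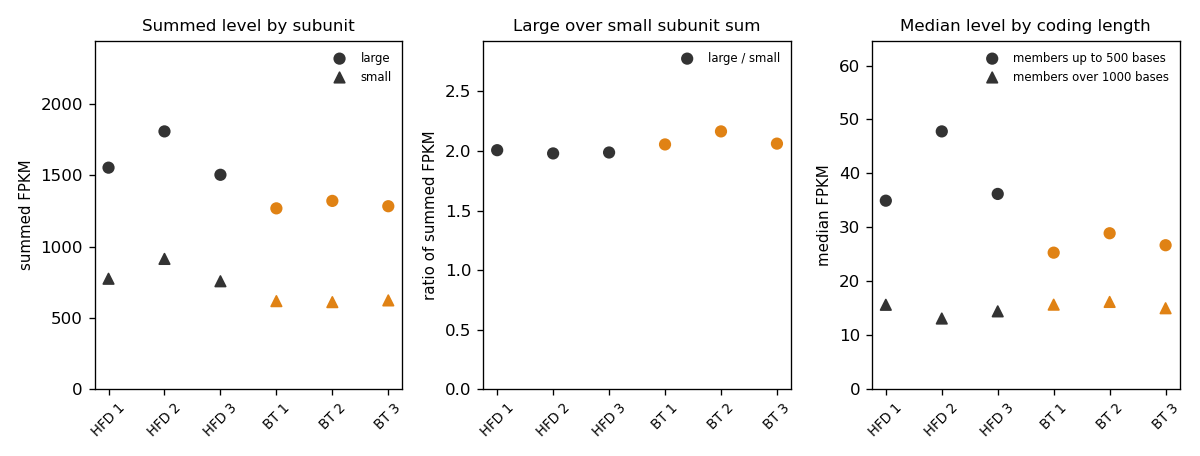
Values per library (HFD in black, BT in orange): summed FPKM of large- and small-subunit genes, the ratio of the 2 sums, and the median FPKM of members with a coding length up to 500 bases or over 1000 bases. The sums and the short members are lower in the BT libraries, the ratio lies between 1.98 and 2.16, and the long members lie between 13.1 and 16.2 in all 6.

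How far a member fell went with how short it is. Of the 13 members with a coding length up to 400 bases 11 fell, and the other 2 also had all BT libraries below all HFD libraries. Of all genes of that length 39.9% were lower. Of the 14 over 400 and up to 500 bases 6 fell, of the 21 up to 700 bases also 6, and of the 16 up to 1000 bases 1, against 25.6%, 16.5% and 6.79% of all genes in these classes. Of the 11 members over 1000 bases 0 fell and 1 rose, against 3.53% and 5.61% of all genes over 1000 and up to 1500 bases. The medians of the log2 change in these 5 classes were -0.60, -0.48, -0.30, -0.05 and 0.15. Spearman's rho between coding length and log2 change was 0.684 over the 75 members, 0.723 in the large and 0.602 in the small subunit. It is a description across genes, which share the libraries, their depth and their fragment lengths.

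The same gradient ran through all genes, where rho was 0.442 over the 10221 genes with a coding length. The medians of all genes in the first 5 classes of length were -0.40, -0.27, -0.12, -0.02 and 0.07. Up to 500 bases 17 of 27 members (63%) fell, against 34.1% of all genes of that length, and 0 rose, against 1.72%. The BT libraries were all below the HFD libraries in 23 of the 27, against 52.8%, and all above in 1, against 5.48%, and the change was negative in 26, against 81.2%. Between 500 and 1000 bases 7 of 37 members (18.9%) fell, against 10.7%, and 0 rose, against 2.92%. The BT libraries were all below in 16 of the 37, against 25.7%, and all above in 2, against 12.4%, and the change was negative in 26, against 58.5%. Over 1000 bases 0 of 11 members fell, against 2.05%, and 1 rose, against 7.61%. The BT libraries were all below in 1 of the 11, against 7.22%, and all above in 4, against 29.7%, and the change was negative in 3, against 28.4%. With the trend on coding length removed, described further on, 1 of the 27 members up to 500 bases was lower, against 92 of 986 genes. Their medians in that fit were -0.24 and -0.03. Up to 400 bases 0 of 13 members were lower there, against 57 of 587 genes. Between 500 and 1000 bases 5 of 37 were lower, against 121 of 2464, and over 1000 bases 0 of 11, against 213 of 6771. No test was made of these shares. Without BT 1, BT 2, BT 3 or HFD 2 the lower members up to 500 bases numbered 1, 2, 3 and 6. The lower genes of any length numbered 124, 221, 382 and 400 of 10476 in those fits. The members up to 500 bases had median levels of 34.9, 47.8 and 36.2 FPKM with HFD and 25.3, 28.9 and 26.7 with BT. The members over 1000 bases had 15.6, 13.1 and 14.4 FPKM against 15.7, 16.2 and 14.99. The ratio of the 2 medians, which scaling cannot move, was 2.23, 3.65 and 2.51 with HFD and 1.62, 1.79 and 1.78 with BT, so HFD 2 had the steepest gradient. Values of all genes went the same way, with medians of 20.3 to 23.4 FPKM against 16.9 to 17.1 up to 500 bases and 5.90 to 6.93 against 7.09 to 7.50 over 1000 bases.

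**Figure D4:**
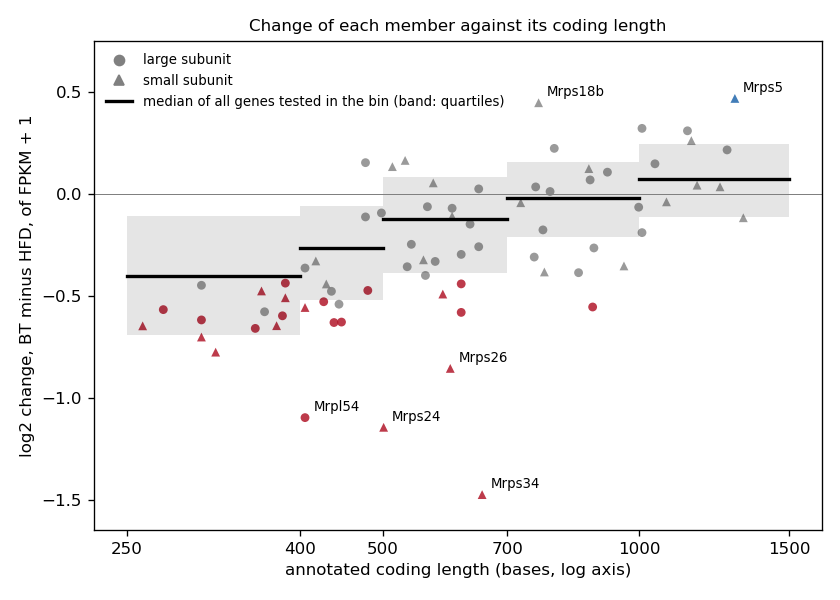
Log2 change (BT minus HFD) of each member against its annotated coding length on a log axis, circles for the large and triangles for the small subunit, red for lower, blue for higher and grey for not called, with the median and quartiles of all genes tested in 5 classes of length. Members and all genes both go from negative changes in short genes to about 0 or above in long genes. Under the quartile band of their class lie 23 of the 75 members, with Mrps34, Mrps24, Mrpl54 and Mrps26 among them, and 9 lie above it. By definition the lowest quartile of all genes in each class lies under the band and the highest quartile above it. Up to 400 bases 2 of 13 members lie under the band and 0 above.

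When the dependence of the values on length and GC content was taken out library by library, the number of lower members depended on which length was used. With the transcript of median length 25 fell and 2 rose (background 7.53% and 5.58%), with a median change of -0.29. With the longest principal transcript 11 fell and 2 rose (background 4.72% and 3.46%), with a median of -0.12. With the coding length 6 fell and 1 rose (background 4.17% and 3.57%), with a median of -0.13, while the median of all genes was about 0 in each. The latter 2 lengths were chosen after the data were seen. Over all genes up to 500 coding bases the median change was -0.34 without such removal. In the 3 fits it was -0.30, -0.17 and -0.03, in the order given. The lower values of short genes thus largely stayed in the fit by the median transcript, and in part in that by the longest principal transcript. In the fit by coding length the lower members were Mrps34, Mrps24, Mrpl54, Mrps26, Mrpl22 and Mrpl4, and the higher was Mrps18b. Mrps34 had a log2 change from -1.33 to -1.05 over the 3 fits, Mrps24 from -1.04 to -0.83, Mrpl54 from -0.95 to -0.62 and Mrps26 from -1.06 to -0.72, and these 4 passed in all 3.

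Members near a start site of another gene were set beside that neighbour, by a rule chosen after the values were seen (protein-coding neighbour on the opposite strand with a start within 1000 bases). Such neighbours that were also tested were found for 27 members, in 26 pairs, since Mrpl46 and Mrps11 are each other's neighbour. The neighbours of the 3 lower members among them did not pass: Eme2 beside Mrps34 had a log2 change of 0.19 ± 0.13, Apba3 beside Mrpl54 0.09 ± 0.10, and Mitd1 beside Mrpl30 0.28 ± 0.11. Over the 27, the median change was -0.15 for the members and 0.09 for the neighbours, whose median coding lengths were 618 and 1230 bases. The median change of all genes tested was 0.07. Mrpl32 with a log2 change of -0.40 (adjusted p = 0.0519) lies beside the proteasome gene Psma2 with one of -0.45 (adjusted p = 0.0436). With median-of-ratios scaling Mrpl32 passed as lower (0.0464). It also passed with the trend by the median transcript (0.0283) or the longest principal transcript (0.0376) removed. Mrpl47 at 0.03 lies beside Ndufb5, a subunit of respiratory complex I, at -0.53 (adjusted p = 0.0244). Mrpl14 at -0.48 (adjusted p = 0.0669) lies beside Tmem63b at 0.46 (adjusted p = 0.0305). Of all 27 neighbours 3 were lower (Psma2, Ndufb5 and B430218F22Rik, the neighbour of Mrps30) and 2 higher (Tmem63b and Gga3, the neighbour of Mrps7). These counts stand against 7.33% lower and 6.01% higher of all genes tested.

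**Figure D5:**
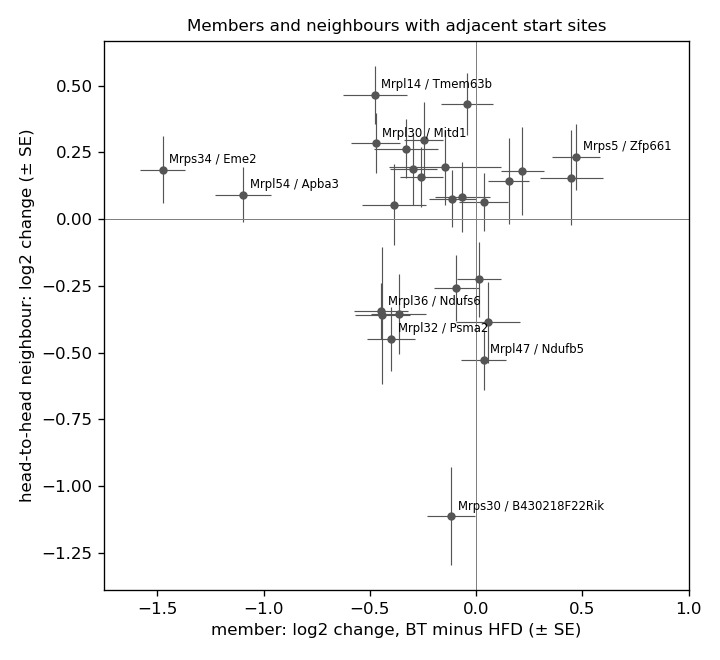
Log2 change (BT minus HFD, with limma's SE) of 27 members on the x axis and of the neighbour whose start lies within 1000 bases on the other strand on the y axis. Mrps34 and Mrpl54 lie far to the left with neighbours near 0 to 0.2, and Mrps30, near 0, has the lowest neighbour, B430218F22Rik at -1.11.

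The rest of the mitochondrial translation apparatus was read from 6 lists, whose counts stand against 7.33% lower and 6.01% higher of all genes tested. Of the 5 subunits with no Mrp symbol 1 fell and 0 rose (median -0.38, negative in 4). That was Gadd45gip1 (CRIF1, in the large subunit at the tunnel exit), with 6.34, 8.71 and 6.97 FPKM with HFD and 3.57, 3.04 and 2.66 with BT, a log2 change of -1.02 ± 0.15, adjusted p = 0.00812. Its value is uncertain, since reads of the 2 strands cannot be told apart without a strand setting. Of 25 tested assembly and rRNA modification factors 1 fell and 0 rose (median -0.06), a share below that of all genes. Malsu1, which keeps the subunits apart during assembly, measured 17.4, 16.7 and 17.3 FPKM with HFD and 10.7, 9.64 and 9.65 with BT. Its groups were tight and apart, with a log2 change of -0.72 ± 0.10, adjusted p = 0.00738, and Igf2bp3 on the other strand covers 40.5% of its exon bases.

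Of the 12 translation factors tested 0 passed in either direction (median 0.11). The smallest p was that of Tsfm, the exchange factor of the elongation factor Tufm, with a log2 change of -0.58 ± 0.18 and adjusted p = 0.0621, which passed with median-of-ratios scaling (0.0498). Of 20 aminoacyl-tRNA synthetases and amidotransferase subunits 1 fell and 0 rose (median 0.07), against 2.05% lower of all genes over 1000 coding bases. This was Lars2, the leucyl-tRNA synthetase, with 233, 298 and 244 FPKM with HFD and 68.4, 84.5 and 99.4 with BT, a log2 change of -1.62 ± 0.16, adjusted p = 0.00215. Its level was far above the list's median of 7.99 FPKM. Of 12 genes of mitochondrial transcription and mRNA stability 1 fell and 0 rose (median 0.11), against 3.53% lower of genes over 1000 and up to 1500 coding bases. Slirp, the small RNA-binding partner of Lrpprc, went from 38.8, 53.8 and 46.3 FPKM to 19.6, 19.0 and 22.1, a log2 change of -1.15 ± 0.13, adjusted p = 0.00526, and Snw1 on the other strand covers 97.8% of its exon bases. Lrpprc itself had a log2 change of 0.33 ± 0.10, adjusted p = 0.0631.

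Of 7 genes taken as a gauge of mitochondrial content 0 fell and 1 rose (median 0.04). Immt, a scaffold of the inner membrane's cristae, rose from 45.3 ± 3.3 to 59.0 ± 2.0 FPKM (SD, n = 3 each), adjusted p = 0.0412, a call lost without HFD 2, HFD 3 or any of the BT libraries (adjusted p up to 0.144). Immt also missed the threshold with median-of-ratios scaling (0.0851), without a filter (0.0591), without a variance trend (0.054) and with the trend on length and GC removed by any of the 3 lengths (0.0947 to 0.249). In those 3 fits Cs was lower instead (adjusted p = 0.03 to 0.0416), and Tomm20, a protein import receptor of the outer membrane, was lower by the longest principal transcript (0.0268) and with median-of-ratios scaling (0.0429). Tomm20 went from 12.0 ± 1.5 to 8.93 ± 0.36 FPKM (SD, n = 3 each) with all BT libraries below all HFD libraries, adjusted p = 0.0641. The outer-membrane channel Vdac1 had a log2 change of 0.03 ± 0.09 and citrate synthase (Cs) one of -0.24 ± 0.10, adjusted p = 0.861 and 0.127. Gadd45gip1, Malsu1, Lars2 and Slirp passed in all fits without 1 library. The median coding lengths of the assembly, factor, synthetase and transcription lists ran from 1131 to 1616 bases, against 588 for the members.

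The members were set beside 2 other groups of genes for multi-protein machines, with no test of the difference. Of 77 cytosolic ribosomal protein genes 49 fell and 0 rose (median -0.59, median coding length 444 bases), and of 76 nuclear genes for respiratory chain subunits 51 fell and 0 rose (median -0.60, 426 bases), against 7.33% lower and 6.01% higher of all genes and 34.1% lower of genes up to 500 bases. With the trend on coding length removed, 21 and 18 of those fell (background 4.17%), with medians of -0.31 and -0.34, against 6 members and -0.13. Without BT 1, BT 2 or BT 3 the lower cytosolic ribosomal genes numbered 4, 16 and 29 and the lower respiratory chain genes 11, 18 and 26. Of all 10476 genes, 124, 221 and 382 were lower in those fits.

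Depth was roughly 13.8 to 15.8 M fragments per library, lowest in HFD 2. In the shallowest library the coding stretch of a member would have given 31 to 757 fragments, with a median of 209, which puts the counting error alone at 18% to 3.63% of a value. Standard errors of the members' log2 changes ran from 0.09 to 0.26, so changes near 0.1 were not detectable. In whole liver, fewer cells of a type and less RNA per cell cannot be told apart. Of 7 hepatocyte markers 1 fell (Ttr), and Alb is listed at 0 in HFD 3, which puts the lowest marker sum in that library (13521 FPKM, against 33987 to 44799 in the other 5). Markers of Kupffer cells summed to 74.5 to 94.0 FPKM with HFD and 76.7 to 96.5 with BT, with 0 of 6 called. Markers of stellate cells and fibroblasts summed to 84.4 to 139 FPKM with HFD and 61.7 to 82.0 with BT, groups that do not overlap, and 1 of the 4 tested fell (Col3a1), with Lrat at 0. Adipocyte markers summed to 54.9 to 195 FPKM against 144 to 218, nearly all of it Cfd, with 0 called, and the pancreatic markers Prss1, Cpa1 and Pnlip are at 0 in all libraries. Of the pancreatic list Cela1 was lower with BT. Skeletal muscle markers summed to 0 to 34.2 FPKM with HFD against 9.20 to 14.6 with BT, and erythroid markers to 136 to 224 against 92.2 to 293, with 0 called. Markers of sinusoidal endothelium summed to 5.99 to 12.4 FPKM with HFD against 10.2 to 11.3 with BT, with 0 called and Clec4g at 0, and those of cholangiocytes and lymphocytes to at most 3.21 FPKM in any library. The part of these other cells in the members' changes was not tested.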

How the data were processed

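The authors deposited gene levels as FPKM, 1 column per library, for Ensembl mouse identifiers. Named in the submitters' processing notes, without their roles, are Cufflinks 2.1.1, STAR 2.4.0 and CASAVA 1.8.2. Build, annotation and strandedness: not given in the sources used here. Symbols, positions and lengths came from GENCODE M21 (GRCm38), which named 22671 of 23474 rows, and promoters from RefSeq (GRCm38.p6).

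Groups and replicate numbers came from the sample titles. Values were analysed as log2(FPKM + 1), so that changes of low genes are understated, in the 10476 genes averaging 1 FPKM or more. Each was tested two-sided by limma 3.58.1 (R 4.3.3; lmFit, eBayes with a variance trend), the source of all adjusted p-values (Benjamini-Hochberg, over all 10476, called under 0.05). Residual degrees of freedom were 4. An exact permutation test of 3 against 3 cannot go below 0.1, so none is given. The scripts were tested on simulated data. Trends on length and GC were removed with natural splines (5 degrees of freedom). Depth is unknown and was roughly estimated from the smallest step of FPKM times length. Further alternatives are given in the closing section.

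The members and lists were chosen with earlier results of these data known. Named are all members past the threshold, the 4 highest and 4 lowest changes and the highest and lowest level of each subunit, 4 special cases (Mrps18a, Mrps30, Mrps36, Mrpl12), and of each list the called genes, or the gene with the smallest p. Mrpl10, Mrpl11, Mrpl14, Mrpl24, Mrpl32, Mrpl46, Mrpl47, Mrps11, Vdac1, Cs, Lrpprc, Tomm20 and the neighbours were named after their values were seen. Plots were made in Python 3.11.15 (matplotlib 3.10.9).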

Additional observations from a re-analysis of the deposited data

How the results depend on the processing

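With a pseudocount of 0.1, a filter of 5 FPKM, array weights, robust empirical Bayes, quantile normalization or no variance trend, the number of lower members stayed between 22 and 31. Without a filter, 11 members and 345 genes were lower and 0 members and 200 genes higher. TPM rescaling gave 2 higher members, a member median of -0.23 and a large-subunit median of -0.22. Median-of-ratios scaling gave 0 higher, -0.39 and -0.37. Over all genes these scalings called 558 lower and 621 higher, and 884 and 448, against 768 and 630. Removal of the trend on length and GC gave 2 higher members by the median transcript, with or without the replicate block. By the longest principal transcript it gave 11 lower and 2 higher members, medians of -0.12 for all, -0.12 for the large and -0.11 for the small subunit, and 491 genes lower and 360 higher. By coding length it gave 6 lower members, medians of -0.13, -0.11 and -0.16, and 426 genes lower and 365 higher.

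Without 1 library, 3 to 27 members were lower and 0 higher, and the medians ran from -0.38 to -0.23 for all members, -0.37 to -0.25 for the large and -0.42 to -0.20 for the small subunit. Of all genes, 124 to 814 were lower and 49 to 855 higher. The cause was not tested.

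Of the 75 members 23 had the other sign in at least 1 alternative, and 0 of these were among the 25 past the threshold. The number was 6 with median-of-ratios scaling (among them Mrpl10, Mrpl24, Mrpl47 and Mrps11), 5 with TPM rescaling, 3 with quantile normalization, 4 by the median transcript, 13 by the longest principal transcript and 11 by coding length. Of those named by rule, Mrpl19 went to -0.032 with quantile normalization, -0.16 with the trend by median transcript removed (with or without the block) and -0.14 by the longest principal transcript, and lay between -0.11 and 0.19 without 1 library. Mrps27 went to -0.029 with median-of-ratios scaling, -0.037 with quantile normalization and -0.091 with the trend by coding length removed, and lay between -0.048 and 0.083. Mrpl12 went to 0.019 with TPM rescaling, 0.0019 by the median transcript (with or without the block), 0.16 by the longest principal transcript and 0.16 by coding length, and lay between -0.15 and 0.021.

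Whether equal replicate numbers pair the samples is not stated, and they were used as pairs only in the fits with a replicate block. Same-numbered libraries had correlations of 0.163, 0.0973 and 0.147 of their deviations from the group means, each the highest for its library, which is a hint from the data and not from the design. With the replicate block 27 members were lower, 23 of them among the 24, and 1 was higher. Of all genes 949 were lower and 859 higher with the block, against 768 and 630 without it.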
